A study of Homo sapiens with 2 samples.

Results

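The genes BCL2L1, APAF1, BIRC5, HIPK3 and CRK were examined because earlier studies in cancer cells described splicing changes of these genes after amiloride. They were found by gene symbol in the 5 splicing tables of the series and account for 50 of its 159490 events. Those tables name 12254 genes in all. Amiloride is a diuretic that blocks sodium channels, and the samples were HEK293T cells, an established line from human embryonic kidney. The amiloride library came from cells kept for 6 h with 300 µg/mL of the drug, and the control library from cells of the same line without it. Polyadenylated RNA of each was sequenced as 1 library each. Differences therefore have no replicate check and no error from replicates, and the deposited test speaks of these 2 libraries and not of control and treated cells in general.

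The program rMATS had been used to compare an inclusion form of each transcript stretch with another form. The inclusion form is the longer form, except for mutually exclusive exons. There it is the form with the first exon of the pair, which can be the shorter exon. For each event rMATS gives an inclusion level difference. This is the inclusion form's share in the library numbered 1 minus its share in the library numbered 2. The numbers are not tied to a condition in the tables. A positive difference therefore means only that the inclusion form was more frequent in the first numbered library. The reads and inclusion levels of each numbered library could not be matched to a sample and were not used here, so the depth behind each event was not examined. An event is called where its deposited FDR was under 0.1. For all 50 events the effective length of the inclusion form included its own added bases. Reads on exon bodies thus entered the difference as well as junction reads.

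Splicing joins exons at a 5' splice site (5'SS), which begins the intron with GT, and a 3' splice site (3'SS), which ends it with AG. Where an exon has competing 5'SS, or can be left out as a cassette, 1 gene yields different proteins. BCL2L1 is a standard example: the long form of its second exon encodes BCL-XL, which protects cells from apoptosis, and the short form BCL-XS, which promotes it. APAF1 forms the apoptosome with cytochrome c and activates caspase-9, and its isoforms differ by a short insert behind the caspase recruitment domain and by an additional WD40 repeat. BIRC5 encodes survivin, an inhibitor of apoptosis that also acts in the chromosomal passenger complex, and its known variants lack exon 3 or gain a cassette between exons 2 and 3. HIPK3 is a nuclear serine/threonine kinase whose second exon is the source of an abundant circular RNA. CRK is an adapter protein: the long form, CRK-II, carries a regulatory linker and a second SH3 domain that the short form, CRK-I, lacks.

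The competing 5'SS of BCL2L1, CRK and APAF1 are shown first, since a known isoform difference of each gene lies between them. Each run starts with the last 3 bases that both forms share, goes through the stretch that only the long form holds, and ends 6 bases into the intron of the long form. Capitals mark the GT of the short form's site and the GT of the long form's site. All sequences were read from GRCh37 and are written 5' to 3' on the gene's strand.
BCL2L1, chr20:30309458-30309646, minus strand: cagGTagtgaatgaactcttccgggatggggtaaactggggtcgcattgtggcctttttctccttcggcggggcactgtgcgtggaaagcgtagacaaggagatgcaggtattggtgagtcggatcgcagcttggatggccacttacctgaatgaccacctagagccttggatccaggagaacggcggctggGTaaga
CRK, chr17:1339914-1340083, minus strand: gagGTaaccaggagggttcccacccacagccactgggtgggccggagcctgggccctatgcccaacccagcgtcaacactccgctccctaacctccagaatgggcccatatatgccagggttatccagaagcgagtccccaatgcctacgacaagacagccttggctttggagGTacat
APAF1, chr12:99042561-99042593, plus strand: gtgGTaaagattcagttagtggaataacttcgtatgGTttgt

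The exons below were listed in skipped-exon events. APAF1 exon 18 and HIPK3 exon 12 carry the largest called difference of their genes. APAF1 exon 21 and survivin exon 3 had an FDR listed as 0, and HIPK3 exon 5 had the lowest 3'SS score. Capitals mark the exon, between the last 20 bases of the intron before it and the first 6 of the intron after it. Their plus-strand positions are those of the exon alone.
APAF1 exon 18, chr12:99097149-99097277: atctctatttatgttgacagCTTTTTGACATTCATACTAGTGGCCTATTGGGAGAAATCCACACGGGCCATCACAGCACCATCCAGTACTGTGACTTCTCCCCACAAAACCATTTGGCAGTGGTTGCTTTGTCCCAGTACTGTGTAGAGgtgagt
APAF1 exon 21, chr12:99106097-99106213: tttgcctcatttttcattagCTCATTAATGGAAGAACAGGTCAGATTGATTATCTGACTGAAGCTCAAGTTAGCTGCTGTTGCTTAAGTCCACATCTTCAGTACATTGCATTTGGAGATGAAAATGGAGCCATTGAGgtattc
HIPK3 exon 12, chr11:33369712-33369774: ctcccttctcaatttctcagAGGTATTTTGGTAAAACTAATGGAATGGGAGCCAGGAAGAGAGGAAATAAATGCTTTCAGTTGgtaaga
HIPK3 exon 5, chr11:33360303-33360389: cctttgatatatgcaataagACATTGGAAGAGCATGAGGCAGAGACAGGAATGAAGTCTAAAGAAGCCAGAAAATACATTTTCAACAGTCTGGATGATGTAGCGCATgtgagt
BIRC5 exon 3, chr17:76212745-76212862: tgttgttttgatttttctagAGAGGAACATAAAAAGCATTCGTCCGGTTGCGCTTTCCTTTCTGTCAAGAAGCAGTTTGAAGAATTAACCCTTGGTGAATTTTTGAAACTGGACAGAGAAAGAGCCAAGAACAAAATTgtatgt

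Both genes known for a switch between competing 5'SS, BCL2L1 and CRK, differed between the libraries, and in opposite directions. They were listed only in the table of alternative 5'SS, with 1 event each. The long form of BCL2L1 was more frequent in the first numbered library, with an inclusion level difference of 0.124 and an FDR of 2.45e-08. The long form of CRK was less frequent in that library, with a difference of -0.199 and an FDR of 2.71e-14. Among the 3 alternative 5'SS events of the 5 genes, 2 were called, while 28.2% of the 2620 events of that table were.

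In BCL2L1 the event concerned exon 2 of 3, at chr20:30309458-30310151 in the long form of 694 bases and chr20:30309647-30310151 in the short form of 505 bases. Its 3' partner was the exon at chr20:30252261-30253889, across an intron of 55568 bases from the long form. The stretch of 189 bases between the sites is coding and is a multiple of 3, so both forms keep the reading frame. The site of the long form had a score of 7.45, where a score sums log2 ratios of base frequencies at annotated sites over equal frequencies. The site of the short form scored lower, at 5.86. These scores lay at percentiles 40.3 and 19.4 among the exons of the skipped-exon table, so both sites were below the median of 8.07. Of 13 annotated coding transcripts, 11 use the long site and 2 the short site. The size of the difference exceeded that of 51.9% of all called alternative 5'SS events. The long noncoding RNA ABALON is annotated on the opposite strand across this exon, and the sources used here do not state whether reads were assigned by strand, so reads within the exon cannot be told apart, whereas junction reads across the intron belong to BCL2L1.

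In CRK the long form of exon 2 of 3, at chr17:1339914-1340449, has 536 bases and the short form, at chr17:1340084-1340449, has 366. Both were joined to the exon at chr17:1324647-1326944, across an intron of 12969 bases from the long form. The added stretch of 170 bases is not a multiple of 3, so the forms read the last exon in different frames. Here the order of the scores was the reverse of that in BCL2L1. The long site scored 5.79 and the short site 6.53, at percentiles 18.1 and 27.1. Of 3 annotated coding transcripts, 1 uses the long and 1 the short site. The CRK difference was larger in size than 68.8% of the called events of its type.

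The APAF1 event of this type, the insert of 33 bases at the end of exon 3, was not called. Its difference was -0.005 with an FDR of 1. The long site scored 4.1 and the short site 5.28, at percentiles 4.84 and 13.2, the lowest pair of the 3 genes. The long site is used by 6 and the short site by 2 of 9 annotated coding transcripts.

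**Figure D1:**
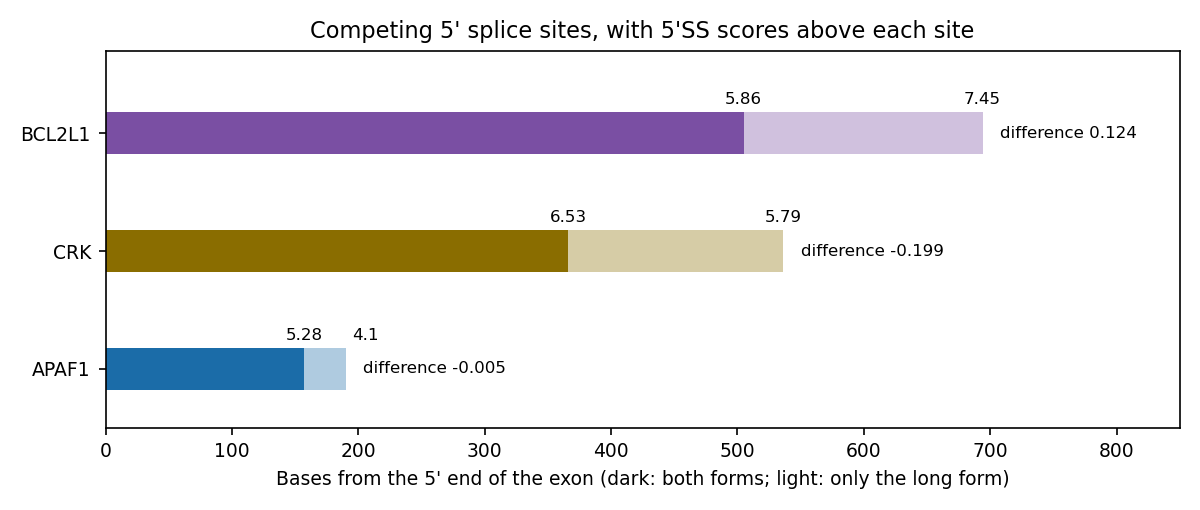
Competing 5' splice sites of BCL2L1 exon 2, CRK exon 2 and APAF1 exon 3, drawn to scale in bases from the 5' end of the exon (horizontal axis), with the short form in dark colour, the stretch of the long form in light colour, the 5'SS score above each site and the inclusion level difference (library 1 minus library 2) at the right. The long form was more frequent in library 1 for BCL2L1 (0.124) and less frequent for CRK (-0.199), and APAF1 differed by -0.005.

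The called skipped-exon events of APAF1, HIPK3 and BIRC5 differed in 1 direction. All 12 called skipped-exon events of these genes had a positive difference, meaning more inclusion in the first numbered library. The whole table leans the same way: 27.5% of its 113456 events were called, 26.4% were called with a positive difference, and 96.0% of the called events were positive. The 5 genes had 36 events in this table, of which 12 or 33.3% were called, and 33 of the 36 differences were positive. Grouped by exon, 11 of 23 exons had at least 1 called event, or 47.8%, where 35.8% of all exons in the table did. The median size of the called differences was 0.181 in these genes and 0.108 over all called events. An exon with more events has more chances of a call. Events of the same exon share reads, and events of adjacent exons can, so these shares describe the genes and carry no test.

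**Figure D2:**
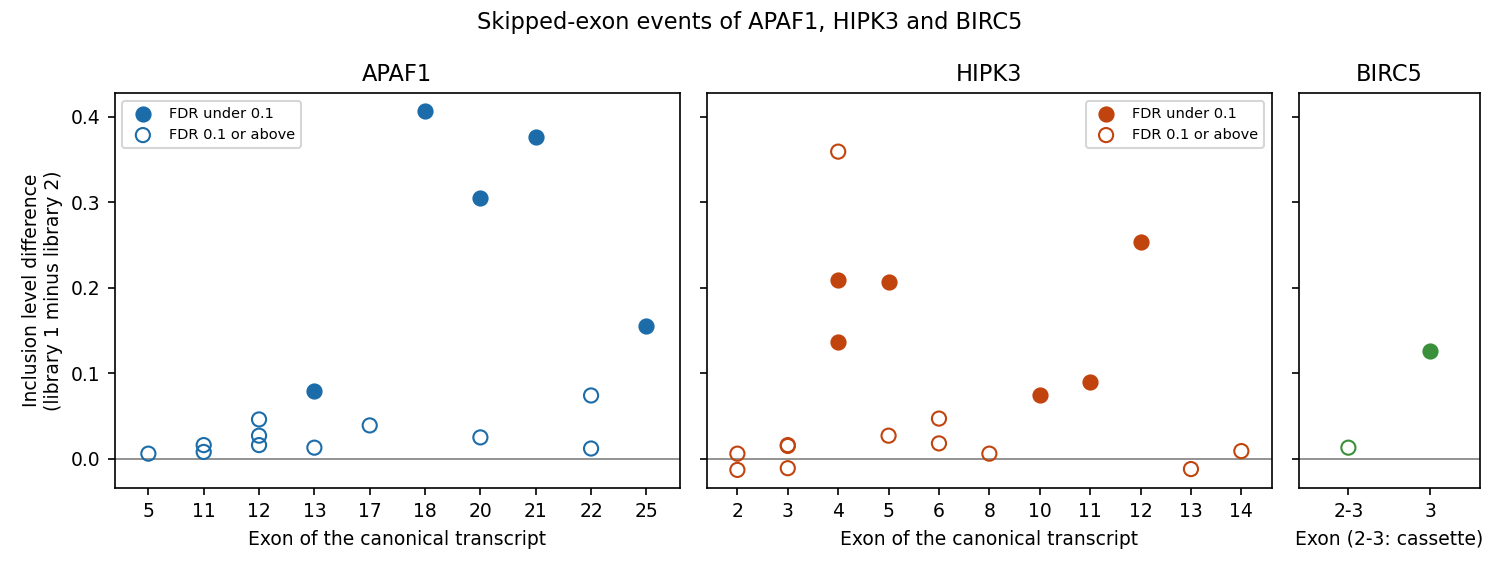
Inclusion level difference (library 1 minus library 2, vertical axis) of the 36 skipped-exon events of APAF1, HIPK3 and BIRC5 by exon of the canonical transcript (horizontal axis), 1 point per event, filled where the FDR was under 0.1. Filled points reach 0.406 at APAF1 exon 18 and 0.253 at HIPK3 exon 12, and the open point at 0.359 over HIPK3 exon 4 was not called.

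In APAF1 the called exons were 13, 18, 20, 21 and 25 of 27, and the 3 largest differences lay between exons 18 and 21. Of 16 events on 10 exons, 5 were called. Exon 18, of 129 bases, differed by 0.406 between exons 17 and 19, with an FDR of 1.2e-13. This is the largest called difference of the 5 genes, and it exceeded in size 89.8% of all called skipped-exon events. Of the 10 APAF1 exons listed, exon 18 is the one most often left out in annotation: 2 of the 8 coding transcripts that span it contain it and 6 skip it. Its 5'SS scored 10.96, at percentile 91.2, and its 3'SS 8.3, at percentile 39.3.

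Exon 21, of 117 bases, had a difference of 0.376 between exons 20 and 22, with an FDR listed as 0. Its 5'SS was among the lowest of the listed exons, with a score of 4.6 at percentile 7.56. A called exon thus carried a 5'SS from the upper end of the scale in exon 18 and from the lower end in exon 21. Exon 20, of 120 bases at chr12:99102363-99102482, differed by 0.305 with an FDR of 1.87e-06 when its neighbours were exons 19 and 22. With exon 23 in place of exon 22 the same exon differed by 0.025, with an FDR of 0.779. Exon 20 was thus called in the event with exon 22 and not in that with exon 23. Reads within exon 20 count in both events. The junctions of the called event leave out exon 21, but reads within exon 20 can come from transcripts that hold exon 21. Reads that join exon 20 to exon 22 count for inclusion in the called event of exon 20. They count for skipping in the event of exon 21, so these events share reads.

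Exon 25, of 126 bases at chr12:99119193-99119318, differed by 0.155 with an FDR of 2.17e-07, and 3 of 8 coding transcripts skip it. Exon 13, of 127 bases at chr12:99071203-99071329, gave the smallest called difference of the gene, 0.079 with an FDR of 0.00301, next to exons 12 and 14. Paired with exon 10 in place of exon 12 it differed by 0.013 and was not called. Exon 13 is also the called APAF1 exon whose length is not a multiple of 3. The lengths of exons 18, 20, 21 and 25 are multiples of 3.

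Exons 5, 11, 12, 17 and 22 of APAF1 had no called event. Their differences ran from 0.006 for exon 5 to 0.074 for exon 22, whose FDR of 0.138 was the nearest to the threshold. Exon 12, with the most events among them, gave differences of 0.016, 0.027 and 0.046. Exon 5 scored 4.64 at its 5'SS, close to the 4.6 of the called exon 21.

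In the table of mutually exclusive exons, 2 of 4 APAF1 events were called, where 39.3% of the 39869 events of that table were. Exon 20 was weighed there against exon 22, between exons 19 and 23, and its form was more frequent in the first numbered library by 0.223, with an FDR of 3.25e-05. The form with exon 12 in place of exon 13 was less frequent in that library by the same measure, at -0.083 with an FDR of 0.0689 between exons 10 and 14. With exon 11 as the upstream neighbour the same pair differed by -0.07 and was not called, with an FDR of 0.181. Exon 20 and exon 13, whose forms were more frequent in the first numbered library, were also called in the table of skipped exons. The tables draw on the same reads. Reads within an exon entered here too, and can come from transcripts that hold both exons of a pair.

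In HIPK3 the called exons were 4 and 5 and, further on, 10, 11 and 12 of 17. Between them, exons 6 and 8 had no called event, and exons 7 and 9 were not listed as skipped exons. Exon 5 was called only in its event between exons 3 and 6, where reads within it can come from transcripts that hold exon 4. Of 18 events on 11 exons, 6 were called. The largest called difference was that of exon 12, a coding exon of 63 bases, at 0.253 with an FDR of 1.54e-14, larger in size than 78.2% of all called events. It is the HIPK3 exon listed here that annotation leaves out most: 1 of 4 coding transcripts contains it and 3 skip it. Its 5'SS scored 7.68 and its 3'SS 9.61, at percentiles 42.7 and 54.9, so neither site stood at an end of the scale.

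The introns around it are short. Introns of 152 and 293 bases flank exon 12, and exon 10 lies between introns of 214 and 98 bases. Exon 10, at chr11:33369175-33369299, differed by 0.075 with an FDR of 0.00168. Exon 11, of 162 bases at chr11:33369398-33369559, differed by 0.09 with an FDR of 0.0328 between exons 9 and 13. The junctions of that event leave out exons 10 and 12, but reads within exon 11 can come from transcripts that hold them. Exons 13 and 14, which follow, differed by -0.012 and 0.009 and were not called. Exon 13 lies between introns of 293 and 328 bases, and exon 14 between introns of 328 and 2320 bases.

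Exon 4, of 120 bases at chr11:33358621-33358740, was called in 2 of its 3 events. It differed by 0.136 with an FDR of 7.96e-07 between exons 3 and 5, and by 0.209 with an FDR of 2.82e-05 between exons 3 and 6. Its largest difference, 0.359 between exons 2 and 6, was not called and had an FDR of 0.911. The largest difference of the exon was thus the one not called, and the reads behind each event were not used here.

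Exon 5, of 87 bases, differed by 0.207 with an FDR of 5.23e-04 in the event with exon 3 before it. In the event with exon 4 before it, the difference was 0.027 with an FDR of 0.247. Reads within exon 5 count in both events. Its called event lies between exons 3 and 6, as does a called event of exon 4. Those events share the reads that join exon 3 to exon 6, so they are not separate observations. Its 3'SS had the lowest score of the 23 exons, -0.16, at percentile 0.727 among all exons of the table. In the sequence printed above, the 20 bases before this exon hold several purines where most 3'SS have a run of pyrimidines. Its 5'SS scored 8.54, above the median. Exons 4, 5, 10 and 11 are contained in all 4 coding transcripts that span them, so their called skipping is not annotated in this set. The remaining called and uncalled exons of HIPK3 had 3'SS scores from 6.37 to 21.37, the highest at exon 2.

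Exons 2, 3, 6, 8, 13 and 14 of HIPK3 had no called skipped-exon event, with differences from -0.013 to 0.047. The 3 events with negative differences in this table came from exons 2, 3 and 13. Exon 2, of 1099 bases at chr11:33307959-33309057, holds the start of the coding sequence and lies between introns of 28523 and 40998 bases from exons 1 and 3. It differed by -0.013 and 0.006, with FDRs of 0.928 and 1. Exon 6 came nearest to the threshold, with 0.047 and an FDR of 0.126.

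Exons 2 and 3 of HIPK3 were nevertheless part of called events in the table of mutually exclusive exons, where 5 of 7 HIPK3 events were called. Over the 5 genes 7 of 11 such events were called, where 39.3% of the 39869 events of that table were. The 7 fell to 4 at an FDR under 0.01, and to 4 with a size of 0.1 or more. The form with exon 2 in place of exon 3 was less frequent in the first numbered library. It stood at -0.119 with an FDR of 0.00106 from an upstream exon that matches none of the canonical transcript. From exon 1 it stood at -0.086 with an FDR of 0.0202. The form with exon 3 was less frequent in that library against exon 6, at -0.119 with an FDR of 0.00382. Against exon 4 it stood at -0.108 with an FDR of 0.0158. The form with exon 12 in place of exon 13 gained by 0.094 with an FDR of 1.17e-05. Exons 4 against 5 and exons 13 against 14 were not called, with FDRs of 0.111 and 0.451. Among the 7 called pairs of the 5 genes, 5 were negative and 2 positive. The sign tells only which exon of the pair had a higher share in the first numbered library than in the second. Reads within each exon entered these differences, and such reads can come from transcripts that hold both exons. HIPK3 exons 2, 3, 4, 6 and 13 are contained in all 4 coding transcripts that span them. A swap of 1 exon for the other was not tested.

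In BIRC5 the skipping event of exon 3 was called and the cassette of survivin-2B was not. Exon 3, of 118 bases between exons 2 and 4, had a difference of 0.126 with an FDR listed as 0, larger in size than 55.3% of all called events. Its length is not a multiple of 3, so the form without it shifts the reading frame. Its 5'SS scored 4.65, at percentile 7.8, and its 3'SS 10.9, at percentile 69.9. Of 5 coding transcripts that span it, 3 contain it and 2 skip it. The cassette of 69 bases between exons 2 and 3 had a difference of 0.013 with an FDR of 0.243, and 2 of 5 spanning coding transcripts contain it. The cassette holds repeat sequence, so reads within it can have other origins in the genome. BIRC5 was listed in no other table.

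**Figure D3:**
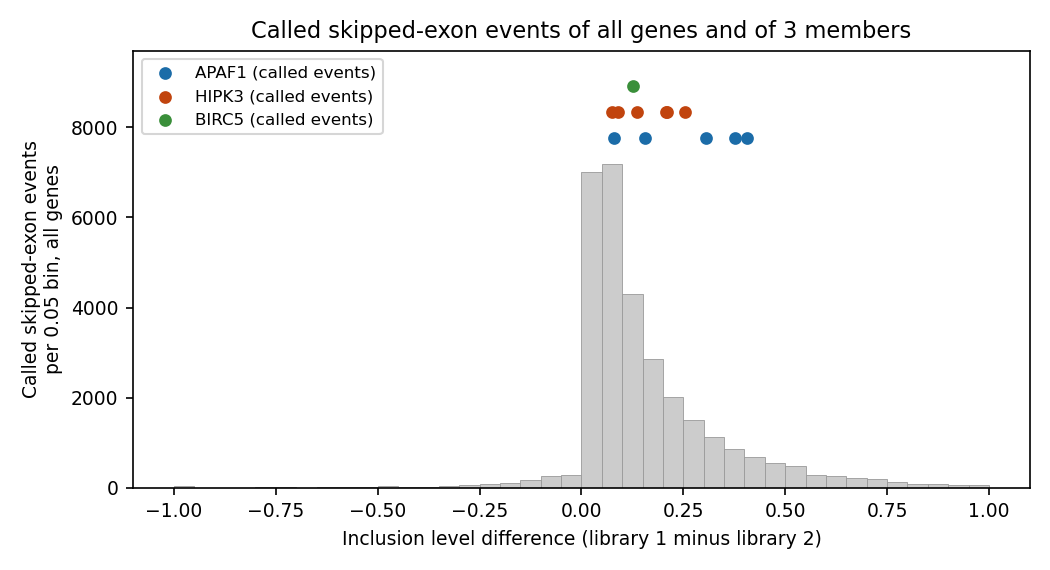
Number of called skipped-exon events of all genes per bin of inclusion level difference (grey bars, vertical axis; difference of library 1 minus library 2 on the horizontal axis, in bins of 0.05), with the called events of APAF1, HIPK3 and BIRC5 as points above the bars, whose height has no meaning. All 12 points lie on the positive side, from 0.075 to 0.406, as do 96.0% of the called events of all genes.

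Sequence features that did not enter the choice of genes were compared between the 11 called exons and the 12 exons with no called event. All 23 exons lay between AG and GT. A length that is a multiple of 3 was found in 8 of the 11 called exons and in 6 of the 12 others, where the share over the whole table was 36.3% among called exons and 40.2% among the rest. Skipping in an annotated coding transcript was found for 7 of the 11 called exons and for 5 of the others. The share over the whole table was not taken for this feature, so these counts have no background. APAF1 exons 11, 12, 13, 17, 20, 21 and 22 are each skipped by 2 of 8 coding transcripts. Whether these are the same transcripts, lacking several exons at once, was not examined. The 5'SS score was below the median of all exons in 6 of 11 called exons and in 9 of 12 others, with median percentiles of 43.7 and 33.1. The 3'SS score was below its median of 9.21 in 5 of 11 and 6 of 12, with median percentiles of 51.5 and 55.4. Called exons of these genes therefore covered the range of scores that the uncalled exons covered at the 5'SS, and no test was made on so few exons.

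**Figure D4:**
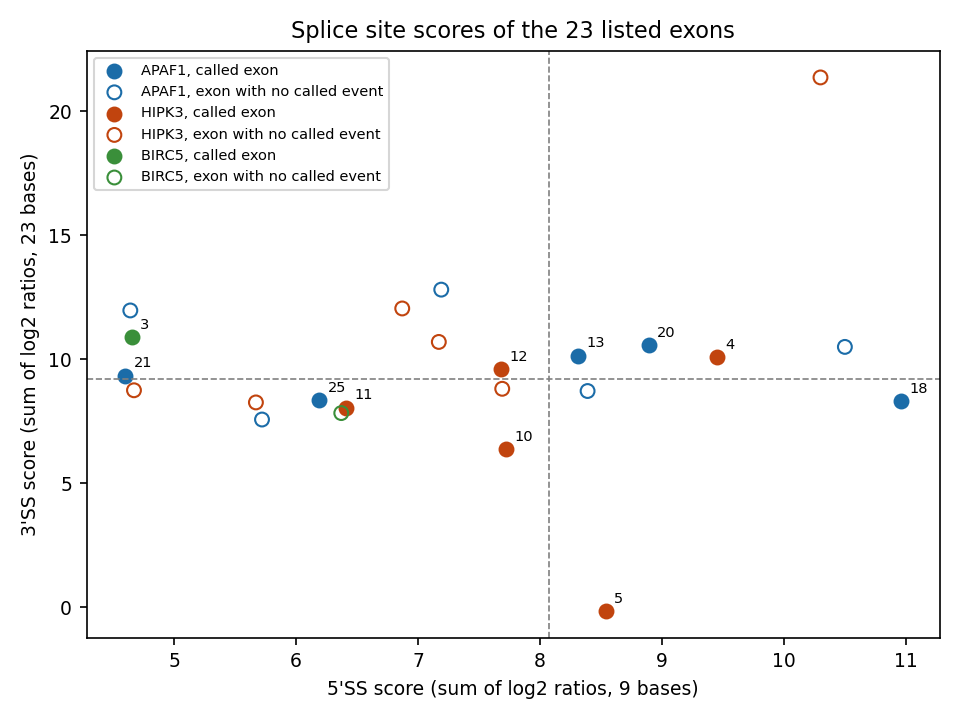
Score of the 5'SS (horizontal axis) and of the 3'SS (vertical axis), both sums of log2 ratios, for the 23 listed exons of APAF1, HIPK3 and BIRC5, filled and numbered where an event was called, with dashed lines at the medians of all exons, 8.07 and 9.21. Called exons lie on both sides of each line, from 4.6 at APAF1 exon 21 to 10.96 at APAF1 exon 18 on the 5'SS axis, and HIPK3 exon 5 lies lowest at -0.16.

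Other genes of the intrinsic apoptosis pathway, to which BCL2L1, APAF1 and BIRC5 belong, were read from the same table. Of 32 genes on the list, 24 were listed and 18 of these, or 75.0%, had a called event, where 66.8% of the 11965 genes in the table did. Their 207 events gave 67 calls, or 32.4% where 27.5% of all events were called, 62 positive and 5 negative, with a median size of 0.108, equal to that of all called events. VDAC2, a channel of the outer mitochondrial membrane, had the largest difference of the 3 genes named by lowest FDR, 0.82 for the exon at chr10:76977646-76977749. BCL2L12, an atypical relative of the BCL2 family, differed by 0.51 at chr19:50172281-50172372, where 13 of its 24 events were called. BCL2L11, which encodes the BH3-only protein BIM, differed by 0.429 at chr2:111907621-111907724. The FDR of all 3 was listed as 0. BAK1, BOK, BAD, HRK and CYCS were among those listed with no called event.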

How the data were processed

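The series holds 1 control and 1 amiloride library of HEK293T RNA. The submitters' processing notes name STAR 2.5.1 and hg19 (GRCh37), and the authors compared the libraries with rMATS, whose version is not given in the sources used here. The 5 tables as deposited list the authors' own comparison per event: p-value, FDR and difference in inclusion level. These were used here as deposited. The 30 columns of reads or inclusion levels per library name no condition and were not used, so depth, interval and direction relative to amiloride are not given. All rows of the 5 gene symbols were taken. Members, lists and thresholds were chosen with earlier results of these data known.

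Events were called at an FDR under 0.1 and grouped by exon. Alternatives were an FDR under 0.05 or under 0.01, a size of 0.1 or more, every event of an exon passing, and exons flanked by AG and GT. Named exons were all called ones (at most 6 per gene), known isoform exons and those with the most events. After the values were seen, every listed member exon was given. From the other lists at most 3 genes with the lowest FDR were named, ties broken by p-value and size. Positions are 1-based on GRCh37, where 98.9% of 67154 exons lay between AG and GT. Exon numbers follow each gene's canonical transcript (GENCODE 44, lifted to GRCh37). Splice site scores cover 9 bases (5'SS) and 23 bases (3'SS) and use base frequencies at 300873 annotated 5'SS and 300290 annotated 3'SS, with a pseudocount of 0.5. A few items are not reported here. Counting and scoring were tested on simulated data. Python 3.11.15, numpy 2.4.6, pandas 2.3.3 and matplotlib 3.10.9 were used.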

Additional observations from a re-analysis of the deposited data

How the results depend on the processing

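The 12 called skipped-exon events of the 5 genes numbered 12 at an FDR under 0.05, 11 under 0.01 and 9 with a size of 0.1 or more, and the 2 called alternative 5'SS events were kept under each. The 7 called mutually exclusive exon events fell to 4 at an FDR under 0.01 and to 4 with a size of 0.1 or more. Of the 11 called exons, 7 were called in every event listed for them, but each of these had only 1 event. The other 4, with more than 1 event, had called and uncalled events. The median size of the called skipped-exon differences rose from 0.181 to 0.207 at an FDR under 0.01 and to 0.209 with the minimum on size. Fewer events pass each of these rules by construction. Of the 21 called events in all tables, 20 passed an FDR of 0.05, 17 passed 0.01 and 15 had a size of 0.1 or more. No paired analysis was possible because there is only 1 library on either side. An event with few reads is listed as not called whether or not its splicing differed, and the reads behind each event were not examined here.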

Other observations

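The 5 genes' partners outside the apoptosis list were read from the skipped-exon table in the same way. All 13 partners of the CRK adapter on the list were listed, and 10 of them, or 76.9%, had a called event, where 66.8% of all genes in the table did. Of their 119 events 24.4% were called, against 27.5% of all events. The 29 called events were all positive, as most called events of the table are, with a median size of 0.088. BCAR1, the docking protein p130Cas, differed by 0.487 at chr16:75271081-75271242. SOS1, a guanine nucleotide exchange factor for RAS, differed by 0.487 at chr2:39216411-39216455, an exon of 45 bases. ABL2, a tyrosine kinase, differed by 0.318 at chr1:179102447-179102509. CRKL, the closest relative of CRK, was listed with no called event, as were ELMO1 and RAP1A.

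Of the 11 genes around survivin and the chromosomal passenger complex, 9 were listed and all 9 had a called event, where 66.8% of all genes did. Of the 11 names, 2 are also on the apoptosis list. The 9 genes had 151 events, so each had many chances of a call, and 39 or 25.8% were called, against 27.5% of all events, 36 positive and 3 negative, with a median size of 0.075. CDCA8, the complex member borealin, differed by 0.429 at chr1:38172650-38172736, and 12 of its 34 events were called. The exportin XPO1 differed by 0.269 at chr2:61729131-61729175, and INCENP, the scaffold of the complex, by 0.179 at chr11:61915948-61916026.

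The HIPK kinases and their partners were the last list. Of 10 genes 7 were listed and 5 of these, or 71.4%, had a called event, against 66.8% of all genes. Of their 55 events 10 or 18.2% were called, against 27.5% of all events, 8 positive and 2 negative, with a median size of 0.0445. HIPK1, a close relative of HIPK3, differed by 0.231 at chr1:114497273-114497392. HMGA1, a chromatin protein, differed by 0.032 with an FDR of 2.74e-07, and CTBP1, a transcriptional corepressor, by 0.021 with an FDR of 3.92e-05. The FDR of the exons named from the other lists was listed as 0, as was that of HIPK1.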
